A study of Rattus norvegicus with 59 samples.

Results

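The MCM helicase and the factors that load it onto DNA were followed through 9 genes: Mcm2, Mcm3, Mcm4, Mcm5, Mcm6, Mcm7, Cdc6, Cdt1 and Orc1. A gene was taken where a probe set of the array carries its symbol. Of the 9 genes, 8 are measured, each by 1 probe set, among 14217 genes that have a probe set of their own and 31042 probe sets tested, and Cdc6 has no probe set under its symbol. Male Sprague-Dawley rats received a single intraperitoneal injection of CdCl2 at 1.25 mg/kg, of Na2Cr2O7 at a dose labelled as 20 mg/kg, or of sterile saline, and livers were taken on day 1, 3 or 7. Whole-liver RNA was hybridised to Affymetrix rat arrays, 59 in all, 1 per liver. Each metal has its own saline controls, 5 livers on each day. The exposed groups also hold 5 livers each, except Cd on day 1, which holds 4, numbered 1, 2, 4 and 5. The study left out a liver of that group whose expression grouped with the unexposed controls. That liver was then found to have taken up no Cd. The strain, sex, tissue and route are shared by all groups, and the metals were not matched in dose. For Cr the labelled dose is the top of the tested range, and the array methods also state that the high dose was taken, although another sentence in them names the middle dose.

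Before a cell copies its genome, each origin of replication has to be licensed. The origin recognition complex, of which Orc1 is a subunit, marks the origin, Cdc6 and Cdt1 join it, and together they load rings of Mcm2, Mcm3, Mcm4, Mcm5, Mcm6 and Mcm7 around the DNA. The rings stay inactive until S phase, when they become the motor of the replicative helicase. Most hepatocytes of an adult liver are quiescent, and the genes of this system are switched on by E2F factors when a cell leaves quiescence, as in regeneration after injury.

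The start regions of these genes are shown because the measured genes other than Orc1 varied together within groups. On day 1 after Cd the helicase subunits were divided. Whether the start regions bear on either was not tested. RefSeq promoter sequences (build GRCr8, 250 bases before to 50 after the annotated start) were at hand for 6 of the 9 genes; Mcm4, Orc1 and Cdc6 were not in the table. They were searched on both strands for 4 words that E2F factors are known to bind, TTTCCCGC, TTTCGCGC, TTTGCCGC and TTTGGCGC. All 6 start regions held at least 1 of these words, against 2.14% of the 33469 start regions in the table, and 4 of the 6 held 2 separate stretches, against 0.0687%. Stretches are given 5′ to 3′ on the gene's strand, 30 bases each, with the matched letters, overlapping words merged, in capitals.
Mcm2, chr4:122918088-122918117, minus strand: tgacccggtTTTCGCGCGAAAacccgtggc
Mcm5, chr19:13488591-13488620, plus strand: gctcagaagTTTCGCGCCAAAacgtcccgc
Mcm6, chr13:42404471-42404500, minus strand: gcgtctgctTTTGGCGCGAAAttagcgtgt
Mcm7, chr12:22163212-22163241, minus strand: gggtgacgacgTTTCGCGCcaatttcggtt
Mcm3, chr9:30733734-30733763, minus strand: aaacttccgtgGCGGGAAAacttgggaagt
Cdt1, chr19:67529245-67529274, plus strand: ccgcgaaaattGCGCGAAAtccgcgggaag
In Mcm2, Mcm5 and Mcm6 a word on one strand overlapped a word on the other, which gave a run of 12 letters. That run lay at -14 to -3 from the annotated start of Mcm2, at -213 to -202 in Mcm5 and at -139 to -128 in Mcm6, in bases. The word CCAAT, the box bound by NF-Y, was found in Mcm3, Mcm5, Mcm6 and Mcm7, in 3, 3, 2 and 3 copies, and not in Mcm2 or Cdt1; 37.5% of all start regions in the table held it. A match is a description of the letters and was not tested for binding.

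**Figure D1:**
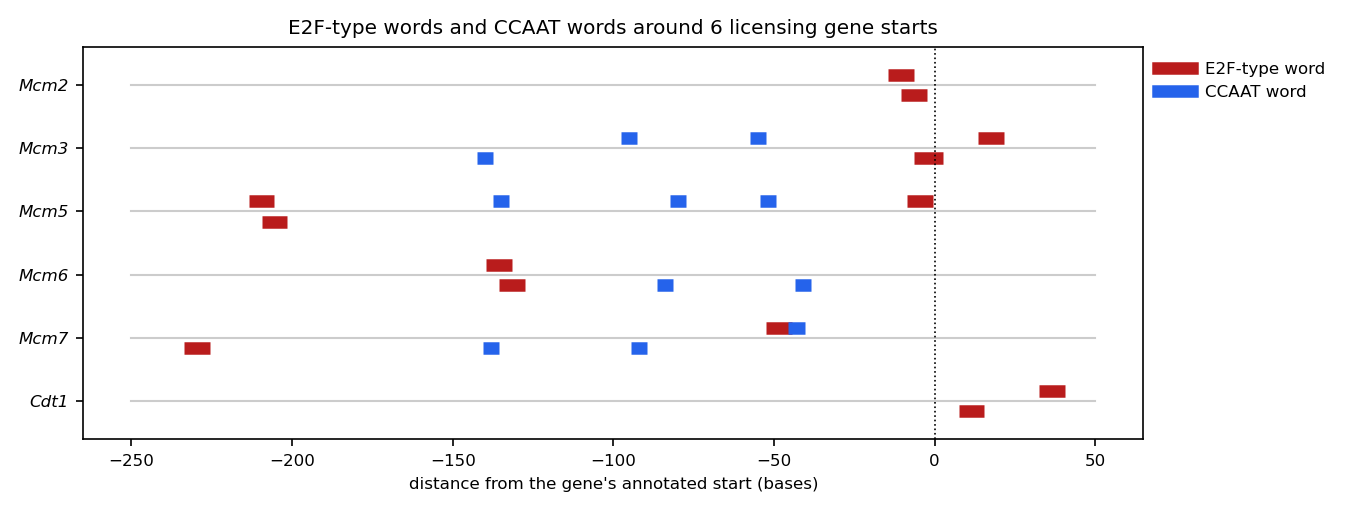
Position of the E2F-type words (red) and CCAAT words (blue) in the start regions of 6 genes, from 250 bases before to 50 after the annotated start (dotted line, distance in bases); bars above a line are on the gene's strand and bars below it on the other. Every gene has an E2F-type word, in Cdt1 both lie after the start, and a CCAAT word of Mcm7 overlaps its nearer E2F-type word.

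The basal signal was checked first. Values are deposited log2 signals, on which a step of 1 is a doubling, and levels of different probe sets are not compared with each other. Averaged over the 59 arrays, the probe sets of the helicase genes lay between the percentiles 54.8 and 83.4 of all probe sets (Mcm3 and Mcm7), that of Cdt1 at 41.8 and that of Orc1 at 3.84, near the bottom of the array. A change of Orc1 can therefore be understated. Hepatocyte genes such as Alb and Ttr were at the top of the array, and the mean of 8 hepatocyte markers ranged from 13.84 to 13.98 over all livers.

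The clearest response followed Cr on day 1. All 8 genes were higher than in the same-day controls at an adjusted p of 0.05 or less, the rule for every call below, while 14.8% of all probe sets were called higher in that comparison. The median difference of the 8 was 0.94 on the log2 scale, against -0.03 over all probe sets, and 5 of the 8 passed a 1.8-fold change. In 3 genes, Mcm2, Mcm4 and Mcm7, every exposed liver lay above every control liver, as did 7.04% of all probe sets.

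Mcm4, a subunit of the core around which the active helicase is built, moved most. In the 5 livers exposed to Cr its log2 signal was 8.86, 8.45, 8.69, 8.65 and 7.93, and in the day 1 controls 7.63, 6.84, 7.66, 7.56 and 7.04. The groups did not overlap, and the difference was 1.17 ± 0.16 (SE, n = 5 and 5), a 2.25-fold rise (limma, adjusted p = 2.63e-06). Mcm6 and Mcm7 are the partners of Mcm4 in that core. Mcm6 read 8.37, 7.73, 7.92, 8.29 and 7.14 in exposed livers against 7.14, 6.56, 7.18, 7.00 and 6.15 in controls. The lowest exposed liver sat among the highest controls, and the rise was 1.09 ± 0.23, or 2.12-fold (limma, adjusted p = 0.000719). Mcm7 read 9.64, 9.26, 9.25, 9.66 and 8.74 after Cr and 8.59, 8.36, 8.69, 8.30 and 8.18 in controls, which did not overlap, with a rise of 0.88 ± 0.13 (limma, adjusted p = 6.77e-06).

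Of the remaining subunits, Mcm2, which also binds histones, read 7.59, 6.72, 7.28, 7.55 and 6.48 after Cr and 6.41, 5.76, 6.22, 6.34 and 5.74 in controls. Here the lowest exposed liver was just above the highest control, and the rise was 1.03 ± 0.18 (limma, adjusted p = 7.59e-05). Mcm3 and Mcm5, which with Mcm2 form the regulatory side of the ring, rose by 0.69 ± 0.15 and 0.68 ± 0.17 with overlapping groups. Cdt1, the loading factor that has to be destroyed or bound by geminin once S phase begins, read 6.61, 5.86, 5.86, 6.14 and 5.04 after Cr and 4.91, 4.71, 5.24, 4.95 and 4.72 in controls. Its rise was 1.00 ± 0.16, close to 2-fold (1.99), and a single exposed liver fell within the control range. Orc1 rose by 0.36 ± 0.09 (limma, adjusted p = 0.00207), the smallest change of the 8.

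The same exposed livers stood out across the genes. The exposed liver numbered 5 was the lowest of its group in all 8 genes, on average 0.60 below the group mean. The exposed liver numbered 1 was the highest in 6, on average 0.44 above it. Controls of that day with the same numbers leaned the same way, by -0.22 for control 5 and 0.26 for control 1. The lowest control on average was number 2, at -0.26. For every number the mean deviation had the same sign in the exposed and the control liver, and what the number stands for was not tested. Without liver 5 all 8 genes were still called, and the differences rose to between 0.42 (Orc1) and 1.32 (Mcm4). Leaving out any other liver of that day also left all 8 called.

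**Figure D2:**
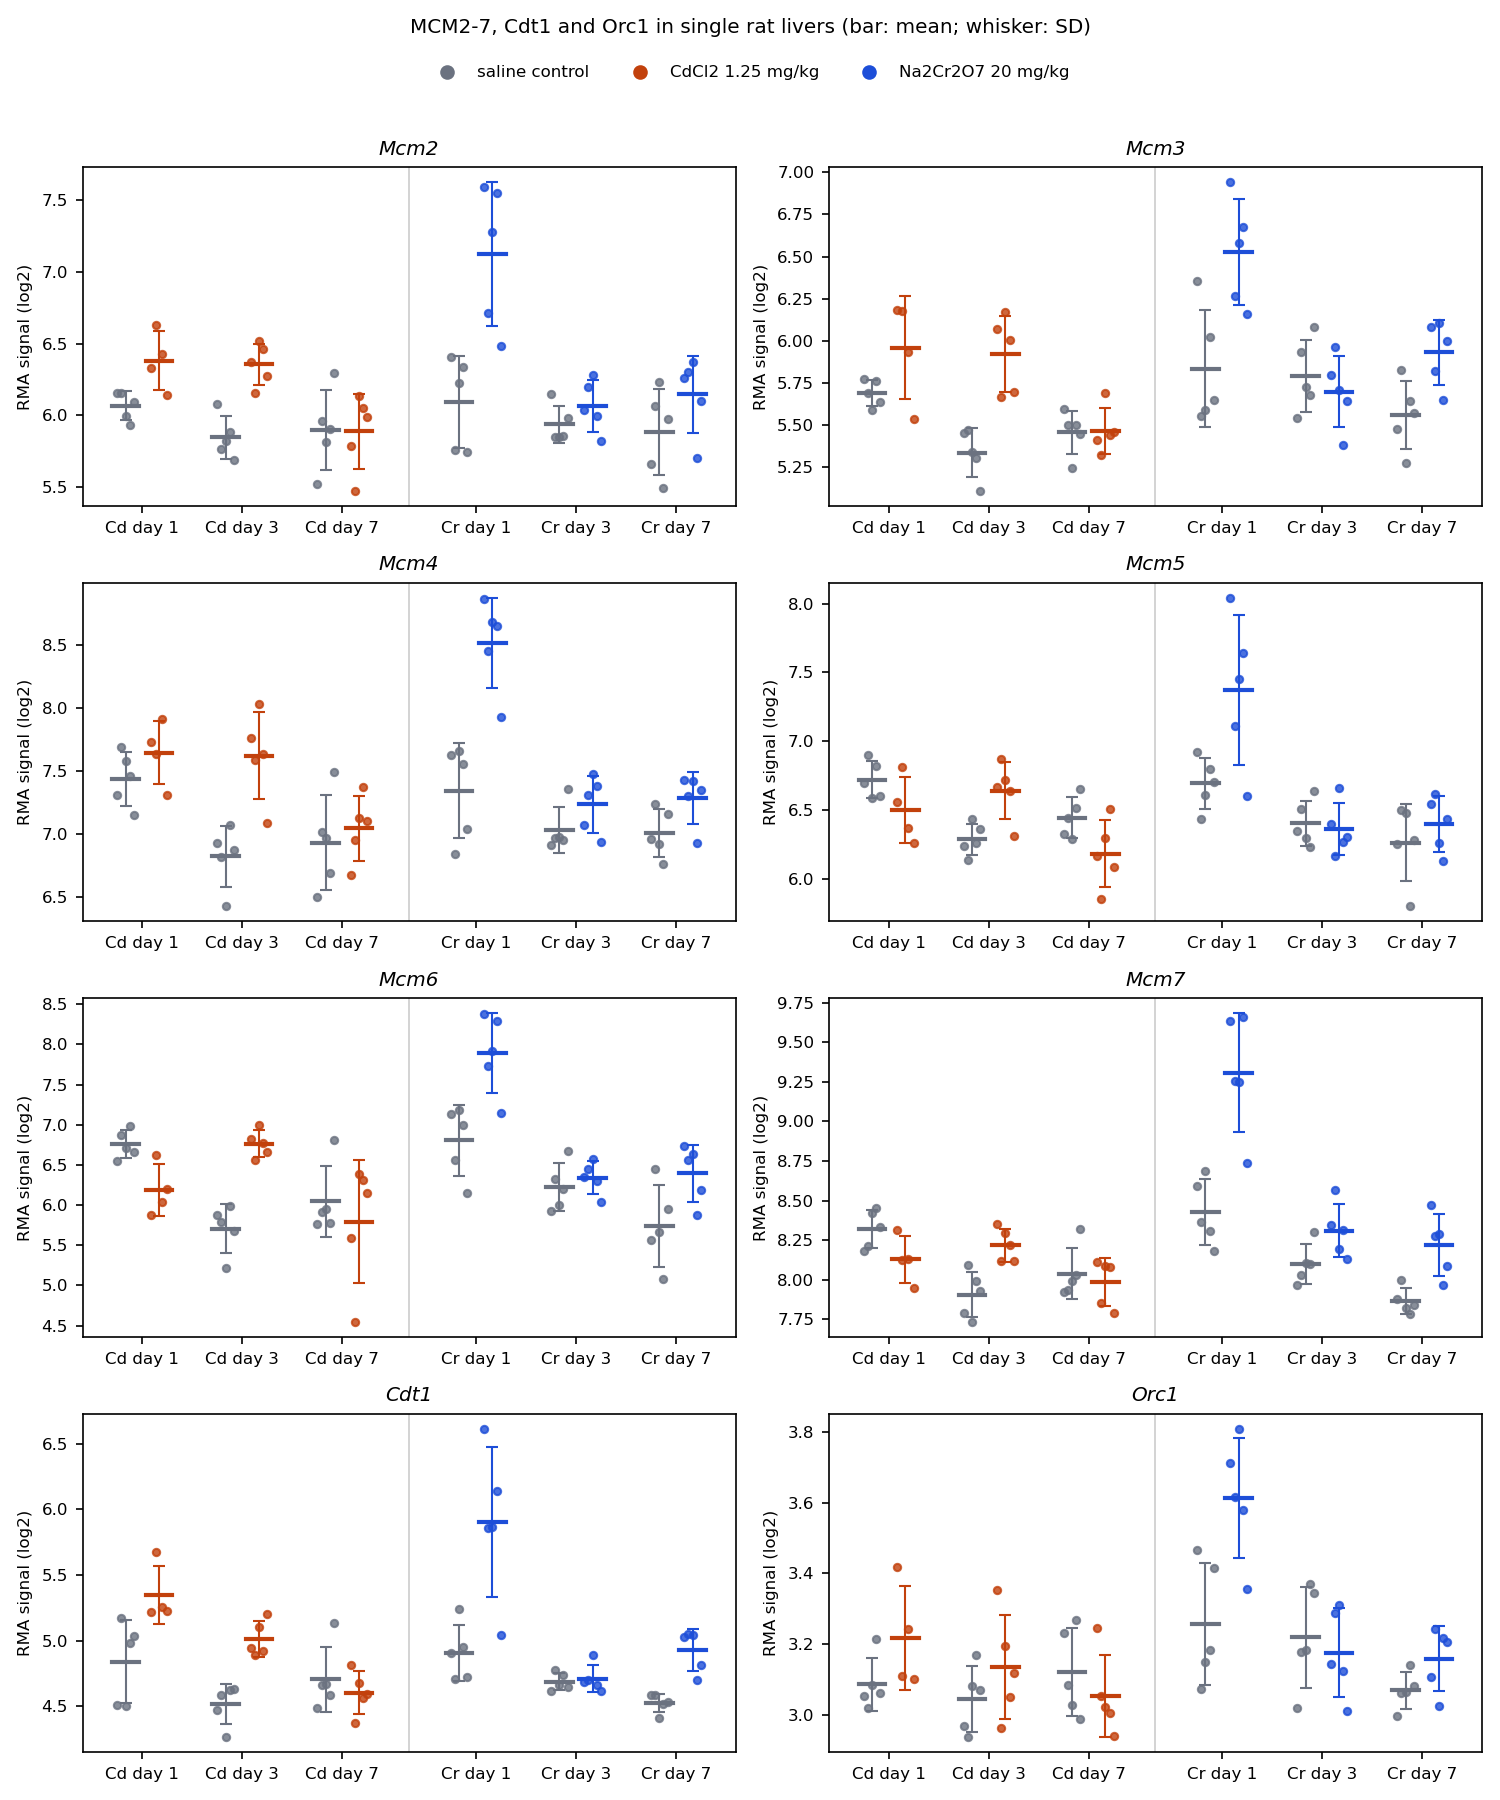
Log2 signal of the 8 measured genes in single livers, controls in grey and exposed livers in orange (Cd) or blue (Cr), with the group mean (bar) and SD (whisker), by metal and day; each panel has its own vertical axis. On day 1 after Cr the exposed mean is above the control mean in all 8 panels, and the groups separate fully in 3 of them. For Cd the separation is clearest on day 3, when the groups separate fully in 6.

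After Cd the differences from same-day controls came in another order. The day 3 Cd controls were below those of day 1, as given below. On day 1 only Cdt1 was called higher, while 6.39% of all probe sets were. Its signals were 5.22, 5.67, 5.26 and 5.23 in the exposed livers and 4.51, 5.17, 4.50, 4.98 and 5.03 in controls, a difference of 0.51 ± 0.14 (limma, adjusted p = 0.0132). Without the liver numbered 2, the highest, the difference was 0.40 and the adjusted p 0.0764.

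The helicase subunits were divided on that day. Mcm2, Mcm3 and Mcm4 had differences of 0.32, 0.27 and 0.21, and Mcm5, Mcm6 and Mcm7 of -0.22, -0.57 and -0.19, none of which passed the test. Mcm6 read 5.88, 6.62, 6.04 and 6.20 after Cd and 6.55, 6.87, 6.71, 6.99 and 6.66 in controls, with 1 exposed liver inside the control range (95% interval of the difference -1.10 to -0.04, limma, adjusted p = 0.182). The signs of the negative values depended on the controls, which were also pooled over the days as an alternative. Against all 15 Cd controls Mcm5, Mcm6 and Mcm7 were at 0.02, 0.02 and 0.04, and 4 genes were called higher (Cdt1 0.66, Mcm4 0.58, Mcm3 0.46 and Mcm2 0.44; 8.18% of all probe sets).

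On day 3 after Cd, 4 genes were called higher, Mcm2, Mcm3, Mcm4 and Mcm6, when only 0.541% of all probe sets were. All 8 differences were above 0, with a median of 0.50 against -0.02 over all probe sets. In 6 of the 8 genes every exposed liver was above every control liver, which held for 1.53% of all probe sets.

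Mcm6 had the largest of these differences, 1.06 ± 0.24 or 2.08-fold (limma, adjusted p = 0.0388), from signals of 6.83, 6.56, 7.00, 6.78 and 6.66 in exposed livers and 5.88, 5.79, 5.21, 5.98 and 5.67 in controls. Mcm4 read 7.76, 7.59, 8.03, 7.64 and 7.08 after Cd and 6.93, 6.82, 6.43, 7.07 and 6.87 in controls, a rise of 0.80 ± 0.17 (limma, adjusted p = 0.0244). In Mcm4 the lowest exposed liver and the highest control were 7.08 and 7.07, so the groups only just separated. Mcm3 read 6.07, 5.67, 6.17, 6.0 and 5.70 against 5.45, 5.47, 5.34, 5.31 and 5.11, a rise of 0.58 ± 0.11 (limma, adjusted p = 0.0113). Mcm2 rose by 0.51 ± 0.12 (limma, adjusted p = 0.0452), from 5.69 to 6.08 in controls and 6.16 to 6.52 in exposed livers. Cdt1 was at 0.49, close to its day 1 value, but with an adjusted p of 0.0759, and Mcm5, Mcm7 and Orc1 were at 0.36, 0.31 and 0.09.

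These day 3 calls were fragile. With the replicate number as a block 3 of the 4 were called, Mcm2 being at 0.51 (limma, adjusted p = 0.0627). The number of genes called ranged from 0 to 5 when single livers were left out, and was 0 without the exposed liver numbered 3 or that numbered 4. It was 1 without control 3, control 5 or exposed liver 1, 2 without control 2 or control 4, and 5 without exposed liver 5. Against the 15 pooled controls 2 genes were called, Mcm2 (0.42) and Mcm3 (0.43), when 1.14% of all probe sets were, and Mcm6 was at 0.59 (limma, adjusted p = 0.361).

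**Figure D3:**
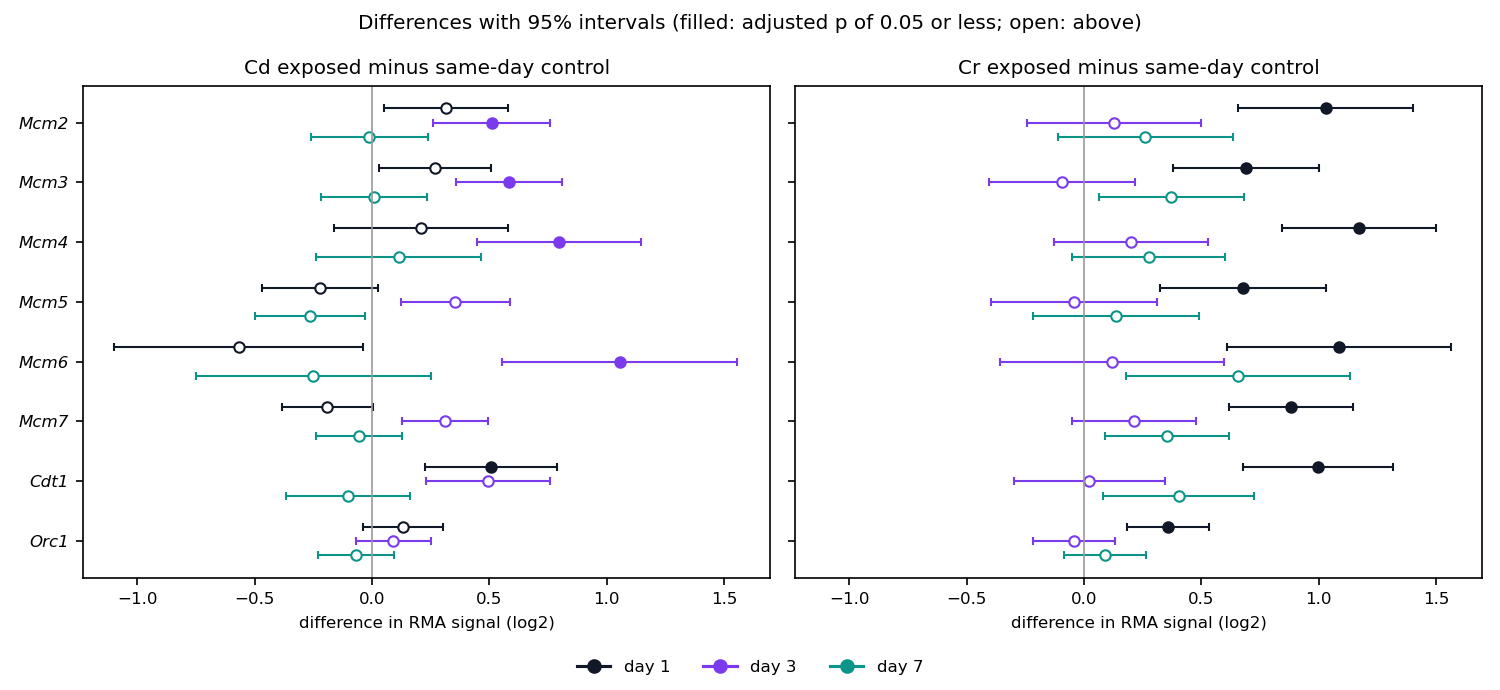
Difference in log2 signal between exposed livers and same-day controls, with 95% intervals, for each gene after Cd (left) and Cr (right) on days 1 (black), 3 (purple) and 7 (green); filled points have an adjusted p of 0.05 or less. All 8 Cr points of day 1 are filled, and for Cd the filled points are Cdt1 on day 1 and Mcm2, Mcm3, Mcm4 and Mcm6 on day 3.

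In the other 3 comparisons none of the 8 genes was called by limma. On day 7 after Cd, when 0.00644% of all probe sets were called higher, the differences ran from -0.26 (Mcm5) to 0.11 (Mcm4), and at an unadjusted p under 0.05 there were 0 genes higher and 1 lower, against 3.24% of all probe sets lower. Mcm6 was widely spread in that group, from 4.55 to 6.38, so that its interval reached from -0.75 to 0.25. On day 3 after Cr, when 0% of all probe sets were called higher, the differences ran from -0.09 (Mcm3) to 0.21 (Mcm7), and 0 genes were at an unadjusted p under 0.05, against 3.61% of all probe sets that were so and higher.

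On day 7 after Cr all 8 differences were above 0, between 0.09 (Orc1) and 0.65 (Mcm6). None passed the adjusted test, which called 0.0354% of all probe sets higher, but 4 (Mcm3, Mcm6, Mcm7 and Cdt1) were at an unadjusted p under 0.05, against 4.5% of all probe sets. Cdt1 read 5.03, 5.05, 5.04, 4.70 and 4.82 in these livers and 4.58, 4.59, 4.41, 4.51 and 4.53 in controls, a difference of 0.40 ± 0.16 (limma, adjusted p = 0.439). Against the 15 pooled Cr controls, Cdt1 was at 0.22, Mcm6 at 0.14, and Mcm5 and Orc1 at -0.06 and -0.02.

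Whether the responses changed with time was tested as a difference of differences. After Cr the response of day 3 was below that of day 1 in 6 genes, from -0.40 ± 0.12 (Orc1) to -0.97 ± 0.22 (Cdt1), when 7.01% of all probe sets were called lower. Mcm5 and Mcm6, at -0.72 and -0.97, had adjusted p of 0.0541 and 0.055. By day 7 only Mcm4 was called, at -0.90 ± 0.23 (limma, adjusted p = 0.00943, 6.23% of all probe sets called lower), although all 8 values were below 0; without the Cr liver numbered 5 of day 1 there were 6 genes. There were 2 without control 1, 3 or 4 or exposed liver 2 of day 1, and without control 1 or 4 or exposed liver 1, 2 or 3 of day 7.

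After Cd the response of day 3 was above that of day 1 in Mcm6 by 1.62 ± 0.35, in Mcm5 by 0.58 ± 0.17 and in Mcm7 by 0.50 ± 0.13 (limma, adjusted p = 0.00458, 0.0372 and 0.0182), when 2.81% of all probe sets were called higher. These 3 genes were those with negative values on day 1. Cdt1 differed by -0.01 ± 0.19 between the days, with an interval of -0.40 to 0.38. Between days 7 and 1 after Cd none of the 8 was called by limma, and at an unadjusted p under 0.05 there were 0 higher and 1 lower (Cdt1, -0.61, adjusted p = 0.0593), against 9.25% of all probe sets lower.

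The metals differed on day 1. In 1 model over all 59 arrays, the response to Cd was below that to Cr in 5 genes, Mcm6 (-1.65 ± 0.36), Mcm7 (-1.07), Mcm4 (-0.96), Mcm5 (-0.90) and Mcm2 (-0.71), when 7.17% of all probe sets were called lower. Cdt1, at -0.49, Mcm3, at -0.42, and Orc1, at -0.23, did not pass the test. On day 3 the signs were turned: all 8 responses to Cd were above those to Cr, by 0.10 to 0.94, none was called by limma, and 4 were at an unadjusted p under 0.05, against 3.56% of all probe sets. On day 7 all 8 were below 0, from -0.16 to -0.90, with 0 called by limma and 3 at an unadjusted p under 0.05, against 4.96% of all probe sets.

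The controls were not level over the days. Mcm6 fell from a mean of 6.76 in the day 1 Cd controls to 5.71 on day 3, by 1.05 ± 0.24 on the log2 scale, and Mcm7 by 0.41 ± 0.09 (limma, adjusted p = 0.0438 and 0.0262), when 0.419% of all probe sets were called lower. In the Cr controls the same pair was lower on day 7 than on day 1, Mcm6 by -1.06 ± 0.23 and Mcm7 by -0.56 ± 0.13 (limma, adjusted p = 0.0175 and 0.0257), when 0.622% of all probe sets were. The fall was not limited to this pair. In each of these 2 comparisons 0 of the 8 differences were above 0. By limma 6 genes were lower at an unadjusted p under 0.05, against 3.32% (Cd) and 4.42% (Cr) of all probe sets. Between days 7 and 1 of the Cd controls and between days 3 and 1 of the Cr controls 0 genes were called by limma, and 5 and 2 were lower at an unadjusted p under 0.05 (3.22% and 3.49% of all probe sets; 0.306% and 0.0193% passed the adjusted test).

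The exposed Cd livers of day 3 and the control livers of day 1 had the same mean of Mcm6, 6.76, and the exposed Cd livers of day 1 had 6.19. In Mcm2, Mcm3 and Mcm4 the exposed Cd means were alike on days 1 and 3 (6.38 and 6.36, 5.96 and 5.92, 7.65 and 7.62). Their Cd control means were lower on day 3 than on day 1 (5.85 and 6.07, 5.34 and 5.69, 6.82 and 7.44). The day 3 differences of these genes were larger than those of day 1, with lower control means and like exposed means. The change in response passed the test in none of them (limma, adjusted p from 0.22 to 0.698). Nor did the fall in their controls (limma, adjusted p from 0.144 to 0.776). An F test over the 3 control days called none of the 8 genes in either metal, with lowest adjusted p of 0.0599 (Mcm7, Cd) and 0.0654 (Mcm6, Cr). The 2 calls in the Cd controls became 0 or 1 when any single control of day 1 or 3 was left out, and those in the Cr controls became 0 without control 1 or 3 of day 1 or control 1 or 4 of day 7, and 1 without control 3 or 5 of day 7. The Cr day 1 calls did not depend on this: against all 15 Cr controls all 8 genes were again called, from 0.43 (Orc1) to 1.63 (Mcm6), when 18.8% of all probe sets were called higher.

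Other genes of the replication programme were counted from fixed lists. Of 14 other licensing and origin genes, 8 rose and 2 fell on day 1 after Cr, among them Gmnn, the geminin that holds Cdt1 in check (0.86 ± 0.21), the origin recognition subunit Orc6 (0.64), the histone acetyltransferase Kat7 (0.61) and Mcm8 (0.48). Of 12 genes of helicase activation, 4 rose and 0 fell: Gins1, a subunit of the GINS complex that activates the helicase (0.89 ± 0.15), Timeless, Wdhd1 and Donson. Of 26 genes of the replication fork, 11 rose and 1 fell, led by the single-strand binding subunit Rpa2 (0.97 ± 0.14), the polymerase subunit Pold2 (0.93), the clamp loader subunit Rfc3 (0.73) and the clamp Pcna (0.68). In that comparison 14.8% of all probe sets were called higher and 11.2% lower.

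The factors around them were mixed, in a comparison that called 14.8% of all probe sets higher and 11.2% lower. Falls counted in lists this short cannot be told from that share. Of 15 E2F and pocket protein genes, 5 rose and 2 fell on day 1 after Cr: Rb1, which restrains E2F factors, fell by 1.29 ± 0.14 on the log2 scale (limma, adjusted p = 1.38e-07) and its relative Rbl2 by 0.59, while Myc rose by 1.01 and E2f5 by 0.47. Of 14 genes of the G1/S transition, 6 rose and 4 fell, among them the kinase inhibitor Cdkn1a (1.20 ± 0.28) and cyclin D1, Ccnd1 (0.88), both higher. Of 8 genes of nucleotide supply, Ctps1 (1.25), Tyms (1.07), Umps (0.95) and 1 more rose, and Tk1 fell by 0.70.

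On day 1 after Cd these lists mostly went down where they moved, in a comparison that called 5.27% of all probe sets lower. In the fork list 0 rose and 8 fell, led by Rpa1 (-0.76), Prim2 (-0.74), Pole (-0.71) and Rfc4 (-0.60), and in the nucleotide list 1 rose and 4 fell, led by Tk1 (-1.05). Of the other licensing genes, Orc2 rose (0.34) and Mcm10 fell (-0.48). On day 3 after Cd, 4 of the 8 helicase and licensing genes and 0.541% of all probe sets were called higher. Then 0 of 14 other licensing, 0 of 12 activation, 0 of 26 fork and 0 of 8 nucleotide genes passed the test. Of the E2F list only Myc did (1.46 ± 0.31, limma, adjusted p = 0.0244). At so low a share these counts cannot set the lists apart from other genes. The fork count ranged from 0 to 3 when single livers were left out.

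Mitosis genes behaved differently from the helicase genes. Of 23 genes of G2/M and mitosis, 23 fell on day 1 after Cd, with a median difference of -2.14, and the largest falls in Kif20a (-3.10), Cdc20 (-2.94), Ccnb2 (-2.90) and Ccnb1 (-2.87); against pooled controls 22 fell. On day 1 after Cr, with all 8 helicase and licensing genes up, 0 mitosis genes rose and 5 fell (median -0.68), a count that ranged from 1 to 11 when single livers were left out (1 without exposed liver 5 and 11 without exposed liver 1) and was 0 against pooled controls. The mitosis genes too were higher in day 1 controls: 13 of 23 were lower on day 3 in the Cd controls (median -1.22) and 22 of 23 on day 7 in the Cr controls (median -1.80). On day 7 after Cr their median was 1.14 with 0 called by limma, when 0.0354% of all probe sets were called higher. The count ranged from 0 to 12 when single livers were left out. It was 12 without control liver 5, 10 without exposed liver 5, 1 without exposed liver 4 and 0 without any other.

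**Figure D4:**
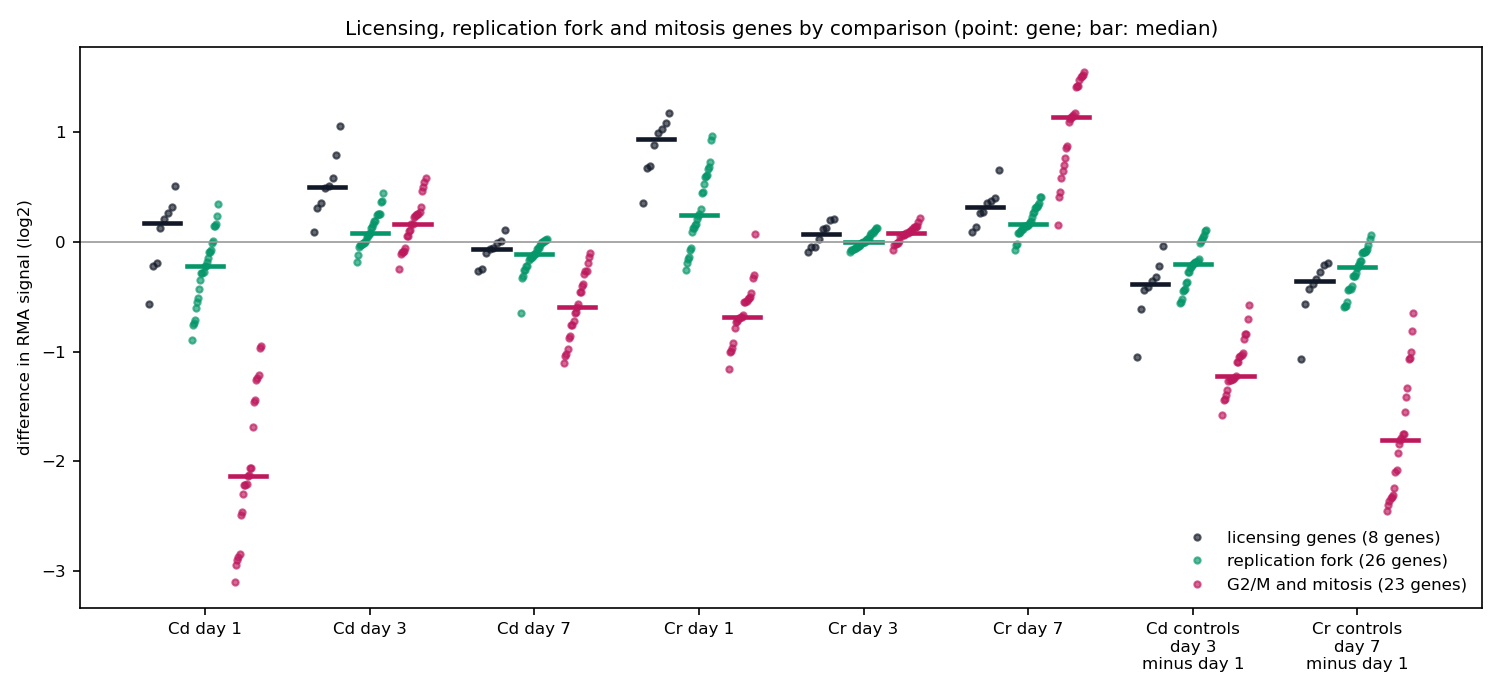
Difference in log2 signal of single genes (points) and their median (bar) for the 8 licensing genes (black), 26 replication fork genes (green) and 23 G2/M and mitosis genes (pink), in the 6 exposed comparisons and in 2 comparisons of control livers between days. On day 1 after Cr the licensing genes are above 0 with a median of 0.94 while the mitosis genes have a median of -0.68, and the controls of later days are below those of day 1 in both groups.

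Markers of hepatocytes and of other cells were also called in the same samples. Of 8 hepatocyte markers, Fgb (0.31) was higher and Cps1 (-0.31) and Ttr (-0.18) lower on day 1 after Cd. On day 1 after Cr, Fgb (0.32) was higher and Cps1 (-0.32) lower. The mean level of that list hides such opposite moves. Arrays of whole liver cannot tell fewer cells of a type from less RNA per cell. On day 1 after Cd, 7 of 7 Kupffer cell markers were lower (median -3.75), their mean level being 8.81 to 9.38 in controls and 4.85 to 7.91 in exposed livers, and 3 of 3 neutrophil markers were higher (median 3.63), with levels of 4.33 to 5.33 and 6.99 to 8.34. On day 1 after Cr the Kupffer levels were 8.80 to 9.18 in controls and 8.99 to 9.49 in exposed livers, 1 of 7 markers being called (Cd163, 0.54), and 2 of 3 neutrophil markers were higher, S100a8 and S100a9, with levels of 4.02 to 4.90 against 4.87 to 6.21. In other cell types few markers were called on that day, when 14.8% of all probe sets were called higher. Called higher were the cholangiocyte gene Epcam (1.14, 1 of 4 markers) and the fibroblast gene Dcn (1.41, 1 of 8). So were the endothelial genes Pecam1 (0.46) and Fcgr2b (0.37, 2 of 6), and the T and NK cell genes Klrb1a (0.35) and Nkg7 (0.28, 2 of 8). Counts this small cannot be told from that share. The mean levels of these lists, controls against exposed livers, were 4.89 to 5.25 and 5.07 to 5.57 for cholangiocytes, 7.43 to 7.71 and 7.61 to 8.58 for stellate cells and fibroblasts, 8.62 to 8.78 and 8.41 to 9.06 for endothelial cells, and 4.38 to 4.65 and 4.57 to 4.62 for T and NK cells, so that every list overlapped between the groups. On day 1 after Cd the endothelial genes Fcgr2b (1.13) and Lyve1 (0.87) were higher, 2 of 6 markers, and the cholangiocyte genes Epcam (-0.46) and Krt7 (-0.41) lower, 2 of 4. On that day 6.39% of all probe sets were called higher and 5.27% lower. Endothelial levels were 7.83 to 8.84 in controls and 8.58 to 8.96 in exposed livers, and cholangiocyte levels 4.98 to 5.65 and 4.76 to 4.93. On day 3 after Cd the same 2 neutrophil markers were higher, with levels of 4.21 to 5.08 against 4.96 to 7.11, and of 8 stellate cell and fibroblast markers 0 were called (median 0.76). The part of these cells in the helicase results was not tested.

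Within groups the helicase genes varied together from liver to liver. Over the deviations of the 59 arrays from their group means, the correlation r between pairs of the 7 genes other than Orc1 ran from 0.36 to 0.76 with a median of 0.60. Orc1 had an r of 0.23 with the mean of the others, against 0.63 to 0.78 for the other 7. Of the 8365 genes compared, Pcna, the sliding clamp of the replication fork, was the most like the mean of the members, both over the deviations (r = 0.847, n = 59) and over the 12 group means (r = 0.979). The next in the deviations were Rtraf, Dnajc9, Cct5 and Lig1, the DNA ligase of the fork (0.764), and in the group means Atp5if1, Snrpa1, Smarcb1 and Ran (0.964). These values describe arrays that share normalization and RNA preparation. Of the genes compared, 5% had an r above 0.526 over the deviations and above 0.885 over the group means.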

How the data were processed

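The deposited values are log2 signals of 59 Affymetrix arrays, 1 per liver. The authors made them in Partek by RMA (robust multi-array averaging), and they were used as deposited. RMA leaves low signals close together, so differences of dim probe sets are understated. The 57 control probe sets were left out, and no filter on signal was set for the tests. The platform annotation gave the gene names: 1 symbol for 20826 probe sets, more than 1 for 436 and no symbol for 9780. No pair of arrays held identical values, and array medians ran from 5.38 to 5.46. The labels call replicates biological, and the number of arrays limits the precision.

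For each metal limma 3.58.1 (R 4.3.3) modelled 6 groups, and each exposed group was compared with its same-day controls. The study pooled controls over days, which was run as an alternative. Differences between days were contrasts of the same model, and differences between metals came from 1 model of 12 groups. P-values were adjusted by Benjamini-Hochberg over all 31042 probe sets, and a call is an adjusted p of 0.05 or less with no fold threshold. Tests were checked on simulated data. Other alternatives were filters on signal, a replicate block, quantile normalization, array weights, unmoderated variances, 1 model for both metals, a fold of 1.8 and leaving out each array. Those on control days and gene lists were added after seeing the data. Named are all members, the genes of a list with the largest called differences (at most 4), and those that followed the mean of the members most closely. Members and lists were chosen with earlier results of these data known. Words in start regions were searched on both strands with Python 3.11.15.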

Additional observations from a re-analysis of the deposited data

Results flagged for a closer look

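Single livers stood far from the rest of their group in 6 of 96 gene and group combinations, where chance alone flags about 1 in 20. 3 of them are the Cd control liver numbered 5 of day 7, high in Mcm6 (6.81), Mcm7 (8.32) and Cdt1 (5.13). The others are Mcm4 in Cr control liver 5 of day 3 (7.36, high), Mcm4 in exposed Cr liver 4 of day 7 (6.93, low) and Cdt1 in exposed Cd liver 2 of day 1 (5.67, high).

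Responses that differed between the metals or between days, by the contrast itself, were the following. On day 1 the response to Cd was below that to Cr in Mcm6 (-1.65), Mcm7 (-1.07), Mcm4 (-0.96), Mcm5 (-0.90) and Mcm2 (-0.71). From day 1 to day 3 the response to Cd went up in Mcm6 (1.62), Mcm5 (0.58) and Mcm7 (0.50). Over the same days the response to Cr went down in Cdt1 (-0.97), Mcm4 (-0.97), Mcm2 (-0.90), Mcm3 (-0.79), Mcm7 (-0.67) and Orc1 (-0.40), and from day 1 to day 7 in Mcm4 (-0.90). The contrasts with day 1 after Cd include the day 1 Cd controls. All 8 genes had higher means there than in the day 3 controls, Mcm6 and Mcm7 by the adjusted test.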

How the results depend on the processing

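Of 661 values of the 32 called member results under the alternatives, 567 kept the call, 94 lost it and 0 changed sign. The Cr day 1 calls of all 8 genes held when any of the 10 Cr arrays of day 1 was left out (8 to 8). The cause of a change was not tested unless fewer genes or livers make it.

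Against pooled controls 4 genes were called higher after Cd on day 1 and 2 on day 3. Values then turned sign for Mcm5 (0.016), Mcm6 (0.018) and Mcm7 (0.041) on day 1 after Cd, for Mcm3 (-0.029) and Mcm4 (-0.019) on day 7 after Cd, and for Mcm5 (-0.055) and Orc1 (-0.023) on day 7 after Cr. Under either filter on signal 0 genes were called on day 1 after Cd, since Cdt1 was filtered out, and with a mean signal of 6 or more 5 were called on day 1 after Cr, the 5 that pass it. Both filters gave 3 genes called lower in the Cr response of day 7 minus day 1. A fold of 1.8, with the adjusted or the unadjusted p, left 0 genes on day 1 after Cd, 1 on day 3 after Cd and 5 on day 1 after Cr. With unmoderated variances 1 gene was called on day 3 after Cd, 1 in the Cd controls of day 3 minus day 1 and 0 in the Cr controls of day 7 minus day 1. Array weights gave 6 genes in the Cr response of day 7 minus day 1, and turned Mcm2 (0.074) and Mcm6 (0.042) on day 7 after Cd and Mcm5 (0.029) in the Cd response of day 7 minus day 1. Quantile normalization turned Mcm3 (-0.0061) on day 7 after Cd. None of the turned values was called.

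Exposed and control livers of the same metal and day that share a replicate number tended to deviate together, though weakly on average (mean r 0.122, against -0.0301 for other numbers). Of the 29 values for a shared number, 17 were above 0.1. Most exposed livers, 19 of 29, correlated best with their own number, so the livers were not independent of it. What the number stands for was not tested. The main model did not take the numbers as pairs, and the replicate block was run as an alternative. The block joined livers with the same number over all days of a metal, so pairs within a day were not modelled. With the replicate block 3 genes were called in the Cr response of day 7 minus day 1, 1 in the Cd controls of day 3 minus day 1 and 3 in place of 4 on day 3 after Cd, without Mcm2, and Cdt1 turned (0.011) in the Cd response of day 3 minus day 1.

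With single livers left out the count of genes ran from 0 to 2 on day 1 after Cd (0 without exposed liver 2, 2 without exposed liver 5), 0 to 5 on day 3 after Cd, 0 to 1 for Cd day 7 minus day 1 (1 without control 2 or 5 of day 1, or control 1 or exposed liver 1 of day 7), 1 to 6 for Cr day 7 minus day 1, 0 to 1 for the Cd controls of day 3 minus day 1 and 0 to 2 for the Cr controls of day 7 minus day 1. Values near 0 crossed it. On day 7 after Cd these were Mcm2 (-0.106 to 0.091), Mcm3 (-0.048 to 0.043), Mcm6 (-0.397 to 0.061), Mcm7 (-0.087 to 0.016) and Cdt1 (-0.158 to 0.0032). On day 3 after Cr they were Mcm5 (-0.117 to 0.016) and Cdt1 (-0.022 to 0.047). Between days after Cd they were Cdt1 (-0.095 to 0.098) and Orc1 (-0.095 to 0.026) for day 3 minus day 1, and Mcm4 (-0.208 to 0.043) and Mcm5 (-0.124 to 0.062) for day 7 minus day 1. In controls they were Orc1 (-0.0026 to 0.067) for Cd day 7 minus day 1, and Mcm3 (-0.114 to 0.089) and Orc1 (-0.084 to 0.014) for Cr day 3 minus day 1.

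Over all probe sets the number called, in either direction, was 3621, 190 and 4 on days 1, 3 and 7 after Cd and 8077, 1 and 39 after Cr. A fold of 1.8 with the adjusted p gave 727 and 64 on days 1 and 3 after Cd and 835, 0 and 23 after Cr, and with the unadjusted p 781 and 71 on days 1 and 7 after Cd and 866, 58 and 126 after Cr. Pooled controls gave 393 and 0 on days 3 and 7 after Cd, and 33 and 0 after Cr. Array weights gave 449 on day 3 after Cd, and 8 and 104 on days 3 and 7 after Cr. The model of both metals gave 327 and 1 on days 3 and 7 after Cd, and 4 and 62 after Cr. Unmoderated variances gave 48 and 0 on days 3 and 7 after Cd and 19 on day 7 after Cr. On day 3 after Cr quantile normalization and the block gave 3 each and either filter 0; on day 7 the filter at 6 gave 25 after Cr and the block 2 after Cd. With single livers left out the counts were 2686 to 3644, 17 to 452 and 0 to 10 after Cd and 6441 to 9110, 0 to 3 and 15 to 78 after Cr. Further probe sets of the members were not run, since each measured gene has 1. Signals near the array's floor, above all Orc1, limit what could be detected.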
